A study of Mus musculus with 6 samples.

Results

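Among the 56953 genes in the expression table of WT and GαqKO mouse embryonic fibroblasts (MEFs), 9 were listed as direct effectors or binding partners of active Gαq. The list does not hold every protein that binds it. They are the phospholipases C beta Plcb1, Plcb2, Plcb3 and Plcb4, the guanine nucleotide exchange factors Trio, Kalrn and Arhgef25, the receptor kinase Grk2 and the atypical protein kinase C Prkcz. They were chosen by name, through the Ensembl identifiers of the table and the GENCODE annotation. No measured value entered the rule, but the choice was made with earlier results of these data known. The data were 6 bulk libraries of poly-A RNA from MEFs, that is, connective tissue cells taken from mouse embryos into culture; 3 were labelled WT and 3 labelled GalfaqKO (written GαqKO here). The study's methods describe the second cells as Gαq/11-knockout MEFs, name a single source for both genotypes and state that each library was a separate biological replicate, so genotype and the history of each cell stock cannot be told apart. All 6 cultures were kept in DMEM with fetal bovine serum, no treatment is named, and strain and embryonic age are not given in the sources used here. The values are normalized counts, that is, reads per gene divided by 1 size factor per library, and they summed to between 11392429 and 11483486 per library.

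Gαq is the α subunit of a heterotrimeric G protein that receptors for many hormones and neurotransmitters switch on. Its textbook effectors are the phospholipases C beta, which split the membrane lipid PIP2 into diacylglycerol (DAG), an activator of protein kinase C, and inositol trisphosphate (IP3), which releases calcium from the endoplasmic reticulum. A separate branch runs through Trio, Kalrn and Arhgef25, which load small GTPases with GTP and so act on the actin cytoskeleton and transcription. GRK2 phosphorylates active receptors and also holds active Gαq through its RGS homology domain, and PKCζ is a binding partner that links Gαq to the kinase ERK5. In fibroblasts these routes govern contraction, adhesion and growth.

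The transcript of Gnaq, the gene of Gαq, was not lower in the libraries labelled GαqKO, with a mean of 1691 ± 48.5 normalized counts in WT and of 1926 ± 36.0 in GαqKO (SD, n = 3 each); it was higher there by 0.19 on the log2 scale (adjusted p = 0.00212, limma). Gna11, the gene of Gα11, went from 2148 ± 29.0 to 452 ± 28.7 normalized counts (SD, n = 3 each; log2 fold change -2.25, adjusted p = 9.16e-13, limma). Reads were counted over whole genes, so the Gnaq value does not test for a loss of single exons, and every direction given here is that of the labels. The study reports by Western blot and immunofluorescence that its GαqKO MEFs lacked Gαq protein, which RNA counts do not measure. Differences between the groups were common, with an adjusted p below 0.05 (limma) for 65.8% of the 14096 genes tested. By direction, 31.8% were higher and 34.1% lower in GαqKO. Among the marker lists, the 11 fibroblast markers summed to between 89703 and 95504 normalized counts in WT and between 64317 and 67694 in GαqKO. Of the 10 fibroblast markers tested, 4 were higher and 6 lower in GαqKO. Their members moved in opposite ways, since Col1a1 (collagen I) fell while Pdgfra (a PDGF receptor), Dcn (decorin) and Thy1 rose, and Pdgfra stood at 19.6 ± 2.23 in WT and at 2319.7 ± 42.0 in GαqKO (SD, n = 3 each). The 7 epithelial markers summed to between 516 and 543 in WT and between 11.1 and 25.4 in GαqKO, with Krt14 and Cdh1 carrying nearly all of the WT sum. The 7 muscle markers summed to between 1389 and 1539 in WT and between 273 and 316 in GαqKO. Nearly all of that WT sum came from Tnnt2, with means of 753 in WT and 6.49 in GαqKO, and Acta2, with 715 and 266. Des stood at 13.0 and 12.9. The 6 endothelial markers summed to between 14.6 and 26.1 in WT and between 17.8 and 39.3 in GαqKO. The 8 neuronal and glial markers, between 855 and 965 in WT, were between 595 and 623 in GαqKO, with Tubb3 the only one of 4 tested that fell (log2 fold change -2.73), and the 7 haematopoietic markers, between 144 and 159 in WT, were between 97.7 and 123 in GαqKO. In bulk RNA fewer cells of a type and less RNA per cell cannot be told apart, and the part of these marker differences in the results on the effectors was not tested.

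RefSeq promoter sequences were on hand for 7 of the 9 genes, in 10 windows of the 250 bases before a transcript start (build GRCm38.p6, whose coordinates do not match the GRCm39 positions given for the genes). Printed here are the windows of the 4 genes that the results turn on most, the 3 expressed phospholipases C beta, which moved in opposite directions, and Prkcz, which fell most. Capitals mark each match on either strand to CCAAT (the CCAAT box), GGGCGG (the core of the GC box), TATAAA (the TATA box) or TGANTCA (the letters of an AP-1 site), and overlapping matches run together. Each is written 5′ to 3′ on the strand of its gene.
Plcb1, chr2:134785914-134786163, plus strand: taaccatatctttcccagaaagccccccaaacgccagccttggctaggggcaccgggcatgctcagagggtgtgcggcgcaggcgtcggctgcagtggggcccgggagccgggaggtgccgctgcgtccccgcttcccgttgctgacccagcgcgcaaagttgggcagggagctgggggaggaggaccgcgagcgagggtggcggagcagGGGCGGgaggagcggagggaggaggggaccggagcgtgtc
Plcb4, chr2:135659297-135659546, plus strand: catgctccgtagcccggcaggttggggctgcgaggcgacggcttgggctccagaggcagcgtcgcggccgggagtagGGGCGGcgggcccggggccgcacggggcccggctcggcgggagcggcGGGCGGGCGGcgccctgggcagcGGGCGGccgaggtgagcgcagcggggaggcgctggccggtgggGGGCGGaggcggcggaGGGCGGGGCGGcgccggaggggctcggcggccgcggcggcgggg
Plcb3, chr19:6969815-6970064, minus strand: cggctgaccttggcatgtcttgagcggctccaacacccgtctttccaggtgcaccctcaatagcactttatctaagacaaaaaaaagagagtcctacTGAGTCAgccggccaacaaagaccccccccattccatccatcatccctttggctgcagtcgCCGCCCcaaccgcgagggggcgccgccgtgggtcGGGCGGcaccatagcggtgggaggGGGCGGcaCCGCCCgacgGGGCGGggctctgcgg
Prkcz, chr4:155361429-155361678, minus strand: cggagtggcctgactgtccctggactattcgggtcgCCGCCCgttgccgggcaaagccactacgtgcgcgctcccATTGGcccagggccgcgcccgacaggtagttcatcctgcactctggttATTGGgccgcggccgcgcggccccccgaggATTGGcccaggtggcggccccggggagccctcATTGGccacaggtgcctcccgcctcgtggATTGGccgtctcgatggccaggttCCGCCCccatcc
The Plcb1 window held 1 GGGCGG, which 32.7% of 32851 mouse promoter windows of the same length hold at least 1 time. The Plcb4 window held 7, a number reached in 0.411% of windows, in a sequence of 85.2% G and C against a median of 52.4% over all windows, while the second Plcb4 window held none of the 4 motifs and had 42.8% G and C. The Plcb3 window held 5 GGGCGG (at least that many in 1.93% of windows) and 1 TGANTCA (at least 1 in 6.75%). The most upstream of 3 Prkcz windows held 5 CCAAT, all on the opposite strand, a number reached in 0.213% of windows, and 2 GGGCGG (at least 2 in 16.7%). The other 2 held no CCAAT and 0 and 2 GGGCGG. The rare counts are the highest among 10 windows and 4 motifs and are given as a description. The 2 windows of Plcb4 and the 3 of Prkcz are alternative starts, and which start these cells used was not measured. Among the remaining genes, Trio held 3 GGGCGG (at least 3 in 8.47% of windows) and the Kalrn and Plcb2 windows held none of the 4 motifs.

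Of the 9 genes, 8 reached 10 normalized counts in 3 or more libraries and could be tested, and Plcb2 did not. With limma on log2(normalized count + 1), Plcb1, Trio and Kalrn were higher and Plcb3, Plcb4 and Prkcz were lower in GαqKO, with an adjusted p under 0.05 for each, while Arhgef25 and Grk2 did not pass the test. Such calls are common in this comparison: 65.8% of the 14096 genes tested were called, 31.8% as higher and 34.1% as lower. A log2 fold change over 1 in size was added to the call by Plcb1 and Kalrn, both higher, and by Plcb4 and Prkcz, both lower, where 20.7% of all genes reached it, 10.2% higher and 10.5% lower. The median log2 fold change of the 8 was 0.00146 and their median size, without sign, was 0.88, against -0.012 and 0.39 over all genes tested. The WT and GαqKO values did not overlap for 7 of the 8, Arhgef25 being the exception, and this held for 69.6% of all genes.

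**Figure D1:**
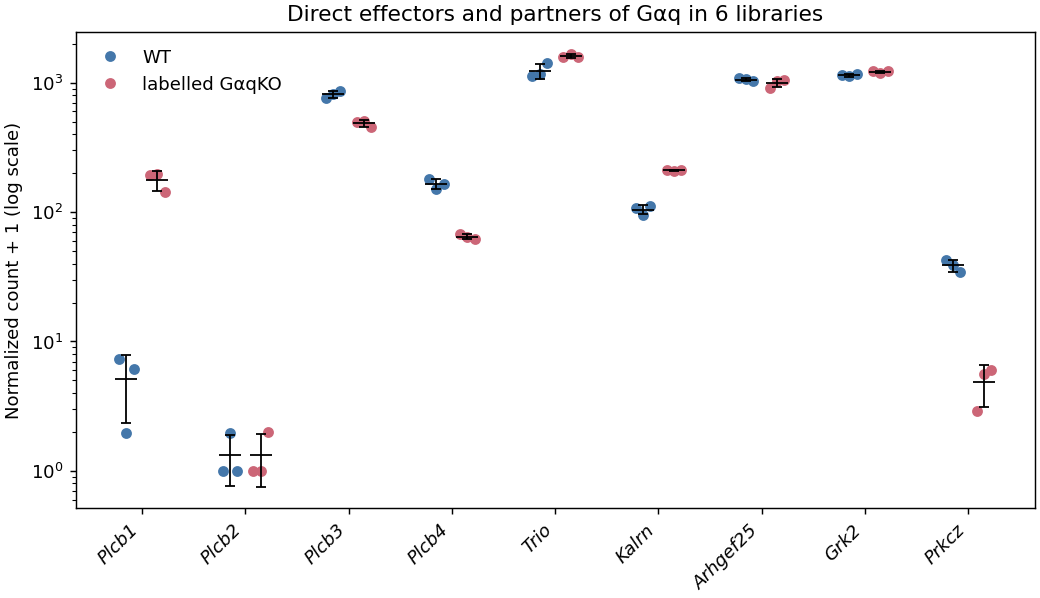
Normalized count + 1 (log axis) of the 9 direct effectors and partners in each WT (blue) and GαqKO (red) library, with the group mean and SD as bars. Plcb1 stands at under 10 in every WT library and over 100 in every GαqKO library, Prkcz moves the other way, and Plcb2 stays near 0 in both groups.

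Plcb1 (ENSMUSG00000051177.17; chromosome 2 of GRCm39, 134627987 to 135317178, plus strand), a phospholipase C beta known from brain and as an isoform with a nuclear pool, had 6.27, 0.971 and 5.09 normalized counts in WT replicates 1, 2 and 3, and 192, 197 and 141 in GαqKO replicates 1, 2 and 3. It was thus close to absent from WT and clearly present in each GαqKO library, with GαqKO replicate 3 the lowest of them. The mean went from 4.11 ± 2.78 to 176 ± 30.7 normalized counts (SD, n = 3 each), 42.9-fold, and the log2 fold change was 5.31 (SE 0.41, 95% interval 4.42 to 6.19, adjusted p = 6.92e-08, limma). This change was larger in size than that of 98.1% of the genes tested. Plcb1 was tested through its GαqKO libraries alone, since no WT value reached the level required for testing. Its place among the tested genes is thus partly set by that filter and is given as a description. In the 5 libraries whose reads could be recovered, Plcb1 had 12 reads over 3 WT libraries and 374 over 2 GαqKO libraries, a ratio per read sequenced of 48.0 (95% exact interval 27.1 to 93.7, counting error only). WT replicate 2, with 1 read, set the size of the log2 value, which ran from 4.72 without it to 5.66 without WT replicate 1. Of the exon bases of Plcb1, 63.3% lie inside the spans of 4930545L23Rik and 9630028H03Rik on the other strand, and whether counting used the strand is not given in the sources used here. Those genes were listed at 0 in all libraries and at 0 to 12.7 normalized counts, and 9630028H03Rik reached 7.31 in WT and 12.7 in GαqKO.

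Plcb3 (ENSMUSG00000024960.10; chromosome 19, 6929693 to 6953838, minus strand), the isoform that is widely expressed outside the nervous system and blood, was the main phospholipase C beta in every library. Its values were 764, 810.2 and 869 normalized counts in WT and 499, 505 and 452 in GαqKO, so the lowest WT library lay well above the highest GαqKO library. The mean fell from 815 ± 52.6 to 485 ± 28.9 normalized counts (SD, n = 3 each), 1.68-fold, with a log2 fold change of -0.75 (SE 0.069, 95% interval -0.90 to -0.60, adjusted p = 4.45e-07, limma). Plcb4 (ENSMUSG00000039943.17; chromosome 2, 135500926 to 135856870, plus strand), an isoform best known from retina and cerebellum, had 179.6, 149 and 164 normalized counts in WT and 66.7, 63.6 and 60.4 in GαqKO. Every GαqKO value was thus below every WT value. Its mean fell from 164 ± 15.5 to 63.6 ± 3.12 normalized counts (SD, n = 3 each), 2.58-fold, with a log2 fold change of -1.35 (SE 0.14, 95% interval -1.65 to -1.05, adjusted p = 1.39e-06, limma). Plcb2 (ENSMUSG00000040061.18; chromosome 2, 118537979 to 118559111, minus strand), the isoform of blood cells, was listed at 0, 0.971 and 0 in WT and 0, 0 and 1.01 in GαqKO. That is at most 1 read in any library, under the floor of 3 counts, so no fold is given and a low level was not detectable at this depth.

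Because the isoforms moved in opposite ways, their make-up was compared in each library. Plcb1 took 0.659, 0.101 and 0.490% of the summed Plcb1 to Plcb4 values in WT and 25.3, 25.7 and 21.5% in GαqKO. It went from a trace to the second isoform, ahead of Plcb4. The mean Plcb1 share was 0.417 ± 0.286% in WT and 24.2 ± 2.29% in GαqKO (SD, n = 3 each), a difference of 23.8 percentage points with an exact permutation p = 0.1, which is the smallest that 3 against 3 libraries allow, so no share can pass 0.05 in this test. Plcb3 kept the largest share throughout, at 82.8 ± 2.09% in WT and 67.0 ± 1.81% in GαqKO, and Plcb4 went from 16.7 ± 1.90% to 8.78 ± 0.462% (SD, n = 3 each; exact permutation p = 0.1 for each). The sum itself was 983 ± 48.1 normalized counts in WT and 726 ± 61.7 in GαqKO (SD, n = 3 each; exact permutation p = 0.1), lower in each GαqKO library than in any WT library. Per kilobase of exon the gain of Plcb1 was smaller, at 15.9 percentage points, and the direction of each isoform was the same.

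**Figure D2:**
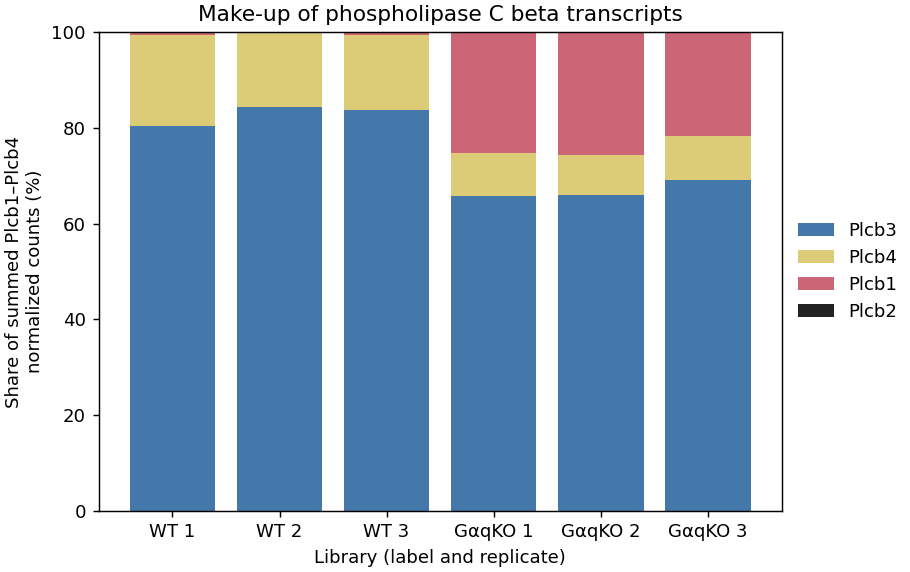
Share (%) of each isoform in the summed normalized counts of Plcb1, Plcb2, Plcb3 and Plcb4, 1 bar per library. Plcb1 takes under 1% in each WT bar and 21.5 to 25.7% in each GαqKO bar, and Plcb2 is too small to see.

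Plcb1 and Plcb4 are neighbours on chromosome 2, on the same strand and 183.7 kb apart, yet Plcb1 rose and Plcb4 fell. Within 1000 kb on either side the annotation has 27 genes, of which 7 were tested. The other 5 were named after their values were seen. Tmx4, upstream of Plcb1, fell from 943 to 746 normalized counts (log2 fold change -0.34, adjusted p = 8.85e-05), and Mkks, after Plcb4, went up from 138 to 306 (log2 fold change 1.14, adjusted p = 1.17e-06, limma for both). Hao1, the processed pseudogene Gm14038 and Slx4ip had log2 fold changes of 0.71, -0.24 and 0.15 and did not pass the test. Plcb1 had the largest change of the 7. The median log2 fold change of the 1120 tested genes of chromosome 2 was 0.026.

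**Figure D3:**
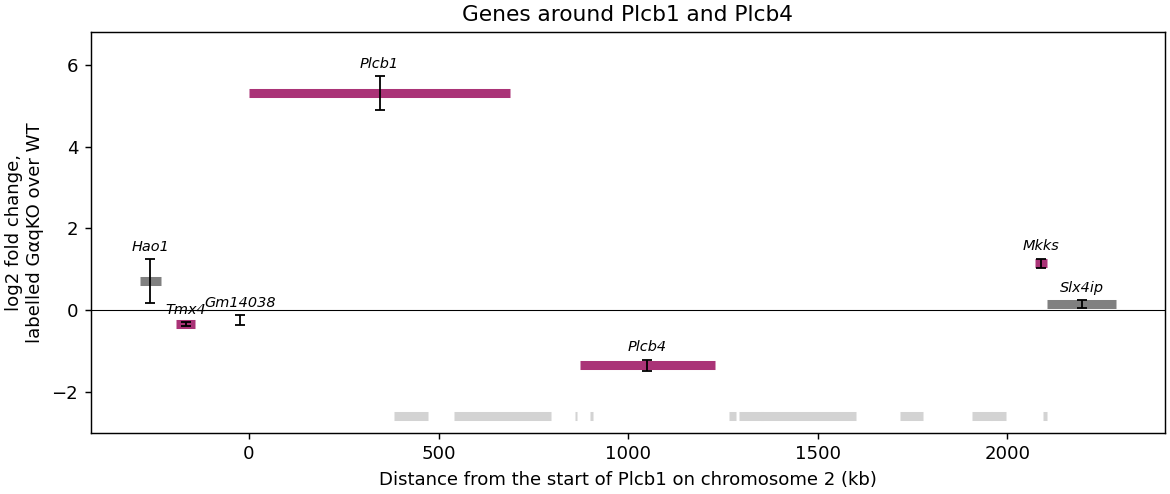
Log2 fold change (GαqKO over WT, limma) of the tested genes around Plcb1 and Plcb4 against distance from the start of Plcb1 (kb), with bars spanning each gene and whiskers of 1 SE, purple where the adjusted p is under 0.05 and dark grey otherwise. Light grey bars at the bottom are genes that were not tested; Gm14038 is too short for its bar to show. Plcb1 at 5.31 stands far above its neighbours, and Plcb4 at -1.35 lies below them.

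The exchange factors rose or did not pass the test. Trio (ENSMUSG00000022263.11; chromosome 15, 27730737 to 28026029, minus strand), which carries a pair of separate exchange domains, had 1123, 1164 and 1418 normalized counts in WT and 1567, 1669.6 and 1568 in GαqKO. WT replicate 3 lay nearest to the GαqKO libraries, without overlap. The mean went up from 1235 ± 160.0 to 1602 ± 58.9 normalized counts (SD, n = 3 each), 1.30-fold, with a log2 fold change of 0.38 (SE 0.075, 95% interval 0.22 to 0.54, adjusted p = 0.000475, limma). In WT replicate 3, Trio deviated from its group mean by 0.21 on the log2 scale, and the 1983 tested genes spanning over 100 kb deviated there by a median of 0.061 against -0.035 for the 6268 under 20 kb; the part of gene length in the Trio value was not tested, and the log2 fold change was 0.49 without that library. Kalrn (ENSMUSG00000061751.17; chromosome 16, 33789443 to 34393902, minus strand), the Trio paralog known for shaping dendritic spines, had 107, 94.2 and 109.9 normalized counts in WT and 210.3, 206 and 210.5 in GαqKO. All 3 GαqKO values sat within a narrow band above WT. The mean went up from 104 ± 8.26 to 209 ± 2.65 normalized counts (SD, n = 3 each), 2.02-fold, with a log2 fold change of 1.01 (SE 0.12, 95% interval 0.76 to 1.26, adjusted p = 4.03e-06, limma), close to the fold threshold of 1. Leaving out single libraries gave 0.94 to 1.05, and the 0.94 without WT replicate 2 is under that threshold.

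Arhgef25 (ENSMUSG00000019467.16; chromosome 10, 127018394 to 127025952, minus strand), an exchange factor whose structure in complex with Gαq is known, had 1089, 1061 and 1023 normalized counts in WT and 914, 1022 and 1053 in GαqKO. The groups overlapped. The means were 1058 ± 33.2 and 996 ± 73.3 normalized counts (SD, n = 3 each), with a log2 fold change of -0.09 (SE 0.061, 95% interval -0.22 to 0.04, adjusted p = 0.217, limma), so a change of more than about 0.22 in either direction lies outside the interval. All exon bases of Arhgef25 lie inside the span of Gm57007 on the opposite strand, which was listed at no more than 1.04 normalized counts in any library. Over the 3 exchange factors the summed value was 2396 ± 134 normalized counts in WT and 2807 ± 105 in GαqKO (SD, n = 3 each; exact permutation p = 0.1, the smallest possible). Per kilobase of exon the sum was 320.2 ± 2.94 and 325 ± 19.1 (exact permutation p = 0.9), since the short Arhgef25 then takes most of it, at 82.2% in WT and 76.3% in GαqKO.

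Grk2 (ENSMUSG00000024858.15; chromosome 19, 4336013 to 4356418, minus strand) had 1139, 1117 and 1169.5 normalized counts in WT and 1232, 1194 and 1223 in GαqKO. The GαqKO values were all above the WT values, by little. The means were 1142 ± 26.3 and 1216 ± 19.6 normalized counts (SD, n = 3 each), with a log2 fold change of 0.09 (SE 0.048, 95% interval -0.01 to 0.19, adjusted p = 0.110, limma), which did not pass the test. Prkcz (ENSMUSG00000029053.17; chromosome 4, 155344575 to 155445909, minus strand), an atypical protein kinase C that needs neither calcium nor DAG and takes part in cell polarity, had 41.8, 37.9 and 33.6 normalized counts in WT and 1.88, 4.62 and 5.04 in GαqKO. Its level was low in WT and near the limit of detection in each GαqKO library. Prkcz was tested through its WT libraries alone, since no GαqKO value reached the level required for testing. Its place among the tested genes is thus partly set by that filter and is given as a description. The mean fell from 37.7 ± 4.09 to 3.85 ± 1.72 normalized counts (SD, n = 3 each), 9.81-fold, with a log2 fold change of -3.07 (SE 0.38, 95% interval -3.88 to -2.26, adjusted p = 7.2e-06, limma). In recovered reads it had 112 over 3 WT libraries and 6 over 2 GαqKO libraries, a ratio of 12.1 (95% exact interval 5.40 to 33.8, counting error only). The paralog Prkci, which encodes the other atypical isoform PKCι, held 97.5 ± 0.247% of the summed atypical protein kinase C values in WT and 99.8 ± 0.102% in GαqKO (SD, n = 3 each; exact permutation p = 0.1).

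Levels of different genes were compared per kilobase of exon, with the length taken as all annotated exon bases of a gene. In WT the order was Arhgef25 at 263 normalized counts per kb, Grk2 at 242, Plcb3 at 103, Trio at 52.6, Plcb4 at 16.9, Prkcz at 5.84, Kalrn at 4.31, Plcb1 at 0.307 and Plcb2 at 0.0476, and only the ranges of Plcb1 and Plcb2 overlapped between neighbours in that order. In GαqKO it was Grk2 at 258, Arhgef25 at 248, Trio at 68.2, Plcb3 at 61.4, Plcb1 at 13.2, Kalrn at 8.68, Plcb4 at 6.56, Prkcz at 0.595 and Plcb2 at 0.0493. There only the ranges of Grk2 and Arhgef25 overlapped between neighbours. Plcb1 thus moved from the eighth place to the fifth, and Prkcz from the sixth to the eighth. Kalrn has 24.1 kb and Trio 23.5 kb of annotated exon, so a shorter transcript in these cells would make their level per kb too low.

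The genes with the pattern most like that of Plcb1, the effector with the largest change, were Gatd1 (Pearson r = 0.9993 of log2 values over the 6 libraries), Dusp23 (0.9988) and Bmp6 (0.9981). Gatd1 had 96.1, 76.7 and 92.6 normalized counts in WT and 170.0, 168.8 and 155.1 in GαqKO, so it was well present in WT and changed far less than Plcb1. Dusp23 had 1.04, 0 and 1.02 in WT and 16.0, 16.2 and 15.1 in GαqKO. Bmp6, a bone morphogenetic protein, had 6.27, 1.94 and 5.09 normalized counts in WT and 52.6, 64.7 and 55.4 in GαqKO. The correlation does not measure the size of a change and is given as a description: all 3 genes, like Plcb1, were lowest in WT replicate 2 and higher in GαqKO. In all, 144 genes had an r over 0.99 with Plcb1.

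Around the effectors, 75 genes in 5 lists cover the same lipids and kinases, and of the 64 tested 18 rose, 28 fell and 18 did not pass the test. This was 71.9% called against 65.8% of all genes, with a median log2 fold change of -0.08 against -0.012. Of the 14 other phospholipases C, 11 were tested, of which 1 rose, 6 fell and 4 did not pass (63.6% called), with a median log2 fold change of -0.32. Plce1, the phospholipase C epsilon that Ras activates, had 324, 335 and 413 normalized counts in WT and 6.57, 8.09 and 3.02 in GαqKO. It nearly disappeared in all 3 GαqKO libraries (log2 fold change -5.77, SE 0.28, adjusted p = 4.8e-10, limma), and its recovered reads gave 1061 against 14, a ratio of 49.3 (95% exact interval 29.2 to 90.4, counting error only). Plce1 was tested through its WT libraries alone, since no GαqKO value reached the level required for testing. The catalytically inactive relatives Plcl1 and Plcl2 moved in opposite directions. Plcl2 went up from 39.4 ± 14.0 to 356 ± 52.9 normalized counts (SD, n = 3 each; log2 fold change 3.19, adjusted p = 2.03e-08, limma) and Plcl1 fell from 72.5 ± 5.81 to 10.2 ± 2.66 (SD, n = 3 each; log2 fold change -2.74, adjusted p = 5.69e-07, limma). Plcxd2 fell from 28.0 ± 4.75 to 13.9 ± 6.41 (SD, n = 3 each; log2 fold change -1.05, adjusted p = 0.0200, limma), with 81.2% of its exon bases inside the spans of other genes, and lost its call without WT replicate 1 or GαqKO replicate 3. With either left out the number that fell was 3 rather than 6. Plcg1 and Plcd1, which receptor tyrosine kinases and calcium respectively regulate, had log2 fold changes of 0.15 and 0.27 and did not pass the test (adjusted p = 0.375 and 0.191, limma); 93.5% of the exon bases of Plcg1 lie inside the spans of other genes.

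Of 18 tested genes listed around the supply of PIP2 and its precursors, 6 rose, 7 fell and 5 did not pass (72.2% called against 65.8% of all genes), with a median log2 fold change of -0.03. The list also holds Pip4p1 and Pip4p2, phosphatases that act on PIP2 and do not supply it, so these counts mix both roles. Named after their values were seen, Pip4p2 was among those that fell (log2 fold change -0.39, adjusted p = 5.82e-05, limma) and Pip4p1 did not pass the test. Pitpnc1, a phosphatidylinositol transfer protein, went up from 98.6 ± 4.14 to 359 ± 25.6 normalized counts (SD, n = 3 each; log2 fold change 1.85, adjusted p = 2.6e-09, limma). The PIP2-making kinases, named after their values were seen, include Pip5k1c, which fell, with a log2 fold change of -0.39 (adjusted p = 3.44e-06, limma), while Pip5k1a at -0.09 and Pip5k1b at -0.01 did not pass the test. Their relative Pip5kl1, named likewise, had 11.5, 22.3 and 20.4 normalized counts in WT and 0, 2.31 and 1.01 in GαqKO, all of these last at or under the floor of 3 counts, and fell (adjusted p = 0.000121, limma). Pip5kl1 too was tested through its WT libraries alone. Of the genes that remove DAG and IP3, 2 rose, 8 fell and 7 did not pass of 17 tested (58.8% called against 65.8%, median -0.11). Among the diacylglycerol kinases, which turn DAG into phosphatidic acid, Dgka fell from 115 ± 17.7 to 25.7 ± 6.82 normalized counts (SD, n = 3 each; log2 fold change -2.14, adjusted p = 1.98e-06, limma). Dgki went up from 13.8 ± 4.34 to 36.7 ± 3.88 (SD, n = 3 each; log2 fold change 1.39, adjusted p = 0.00103, limma).

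**Figure D4:**
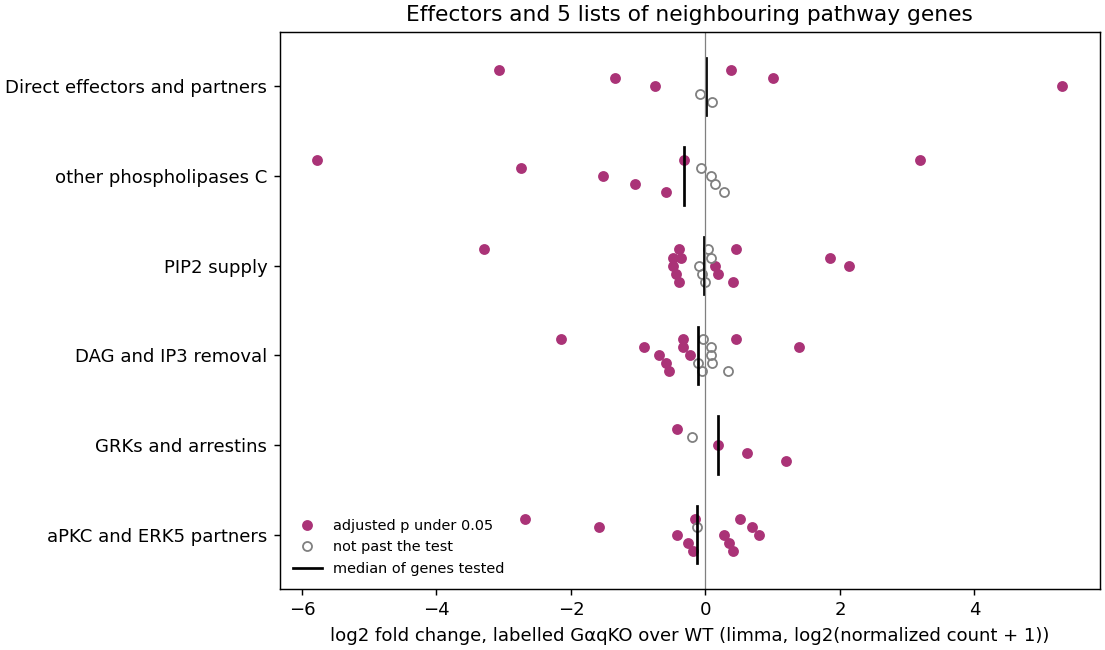
Log2 fold change (GαqKO over WT, limma) of each tested gene of the direct effectors and of 5 lists of pathway genes, with purple points at an adjusted p under 0.05, open points otherwise, and a vertical bar at the median of each list. The medians lie between -0.32 (other phospholipases C) and 0.19 (GRKs and arrestins), and single genes such as Plce1 and Plcb1 lie far outside the rest.

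Of the 9 other GRKs and arrestins, 5 were tested, of which 3 rose, 1 fell and 1 did not pass, where 65.8% of all genes were called (median 0.19). Grk5 went up from 36.0 ± 6.75 to 83.4 ± 12.8 normalized counts (SD, n = 3 each; log2 fold change 1.19, adjusted p = 0.000167, limma), with 83.6% of its exon bases inside the spans of other genes. Grk3, the closest paralog of Grk2, had 5.22, 0 and 2.04 normalized counts in WT and 0, 1.16 and 0 in GαqKO and was not tested. The arrestins, which bind receptors that GRKs have phosphorylated, were named after their values were seen: Arrb1 rose by a log2 fold change of 0.62 (adjusted p = 2.34e-07, limma) and Arrb2 fell by 0.42 (adjusted p = 2.31e-05, limma). Of the 13 tested partners of atypical protein kinase C and ERK5, 6 rose, 6 fell and 1 did not pass (92.3% called against 65.8%, median -0.12). Prkci went up from 1458 ± 13.9 to 1776 ± 89.7 normalized counts (SD, n = 3 each; log2 fold change 0.28, adjusted p = 0.000174, limma), but the median log2 fold change of its chromosome, chromosome 3, was 0.32, and taking that away left -0.04. Pard6b, a polarity adaptor that binds atypical protein kinase C through its PB1 domain, fell from 1106 ± 12.4 to 172 ± 2.89 (SD, n = 3 each; log2 fold change -2.68, adjusted p = 7.2e-13, limma). Wwc1, the adaptor KIBRA that also binds it, fell from 1682 ± 119 to 560.0 ± 14.5 (SD, n = 3 each; log2 fold change -1.58, adjusted p = 3.9e-11, limma). The ERK5 gene Mapk7 and its upstream kinase Map2k5, named after their values were seen, rose by log2 fold changes of 0.40 and 0.35 (adjusted p = 1.57e-05 and 0.00015, limma).

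**Figure D5:**
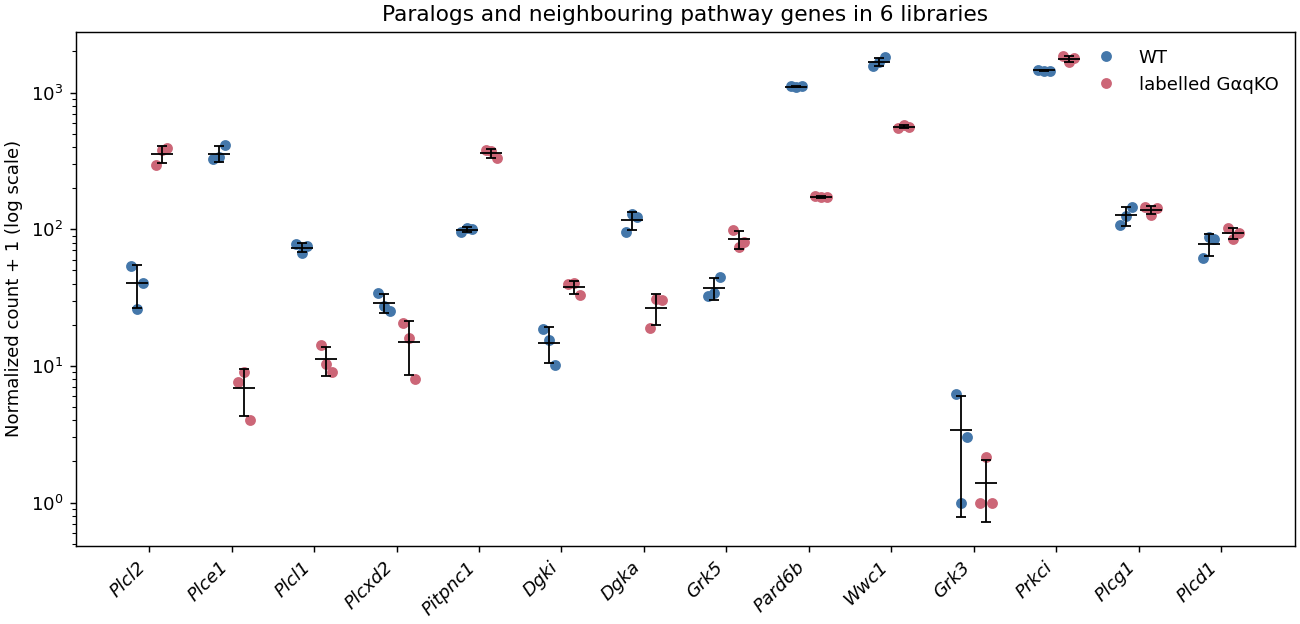
Normalized count + 1 (log axis) of 14 paralogs and pathway genes in each WT (blue) and GαqKO (red) library, with the group mean and SD as bars. Plce1 falls from over 300 to under 10 normalized counts in each GαqKO library, Plcl2 rises from under 100 to over 200, and Plcg1 and Plcd1 overlap between groups.

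Median log2 fold changes differed between chromosomes, from -0.35 on chromosome 4 to 0.32 on chromosome 3, and the effectors lie on 6 of them. With the median of its own chromosome taken away, a comparison added after the data were seen, Plcb1 stood at 5.28, Plcb4 at -1.38, Prkcz at -2.71, Plcb3 at -0.60, Kalrn at 1.19 and Trio at 0.22, each in the same direction. Trio, on chromosome 15 with a median of 0.16, lost most relative to its size. Arhgef25 and Grk2, which did not pass the test, moved to 0.19 and 0.24. The part of the chromosome medians in these values was not tested.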

How the data were processed

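RNA sequencing was done by the authors on poly-A selected RNA of 3 WT and 3 GαqKO MEF cultures. Paired-end reads of 150 bases were aligned to GRCm39 with Rbowtie2 and counted per gene with featureCounts on GENCODE release 32 of the mouse; the tool versions, the strand setting and any filter on low counts are not given in the sources used here. The deposited values are a signal, namely normalized counts, that is, counts divided by 1 size factor per library. In all 6 libraries 100% of the values were whole multiples of 1 step (tolerance 0.05 of a read). The unit check applied here did not take the step of GαqKO replicate 3, 1.007, which is close to 1, so its reads were not used; the other 5 had 9853000 to 12229175 reads, and the count tests edgeR and DESeq2 were run on 5 libraries, as alternatives. Intervals and the floor of 3 counts cover counting error only.

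Symbols and coordinates came from GENCODE release 39, which matched 56310 of 56953 identifiers (643 not matched). Limma, with its trend option, was fitted to log2(normalized count + 1) over the 14096 genes with a value of 10 or more in 3 or more of 6 libraries, two-sided, with Benjamini-Hochberg adjustment over all of them. This scale understates the change of low genes. A log2 fold change over 1 in size and an adjusted p under 0.05 were the thresholds. Isoform shares were compared with exact permutation tests over libraries, two-sided. Among protein-coding genes whose exons all lie inside spans on the other strand without exon overlap, 84.1% of 372 were listed at 0, against 25.2% of 11516 without overlap, so values of overlapping genes are uncertain.

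The effectors and all lists were chosen with earlier results of these data known. Named were the effectors, Gnaq and Gna11, up to 3 genes per list and direction past both thresholds with a mean of at least 20, close paralogs, and the 3 genes most like Plcb1; names outside this rule are marked as chosen after their values were seen. A few lists, with genes named by this rule, are not reported here. The values showed no pairing by replicate number, with correlations of same-numbered deviations of -0.045, -0.148 and -0.064 and of other pairs between -0.075 and 0.125. Whether same-numbered cultures were handled together is not given in the sources used here. On simulated data with 200 changed genes, limma recovered 199 with 12 false calls among 13987 genes, edgeR 199 with 9 among 14098, and DESeq2 191 with 4 among 24711. Alternatives were TMM scaling, pseudocounts of 0.5 and 5, a stricter and no filter, no trend, a replicate block, the count tests, each library left out in turn (over the genes of the 6-library filter) and removal of the chromosome median, which was added after the data were seen. Tools were Python 3.11.15 with numpy 2.4.6, pandas 2.3.3, scipy 1.17.1 and matplotlib 3.10.9, beside limma 3.58.1, DESeq2 1.42.0 and edgeR 4.0.16 under R 4.3.3.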

Additional observations from a re-analysis of the deposited data

How the results depend on the processing

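Of 126 recomputed values for the effectors, 121 kept their direction and, where the setting gave an adjusted p, their side of its threshold. The other 5 moved by more than the replicate spread when the chromosome median was removed, a setting that gives no adjusted p. Among these 5, Arhgef25 changed sign, from -0.09 to 0.19. Sizes moved too: Kalrn fell under the fold threshold of 1 without WT replicate 2 (0.94) and with a pseudocount of 5 (0.98), and Plcb1 went down to 4.35 with a pseudocount of 5. The effector counts stayed at 2 to 3 in each direction, and requiring at least 10 in every library left Plcb1 and Prkcz untested. The highest adjusted p of Trio over all alternatives was 0.0207, without a trend in the prior spread. Requiring at least 10 in every library gave 831 genes higher and 765 lower past both thresholds (against 1432 and 1486), 2 other phospholipases C lower (against 6) and 1 gene of DAG and IP3 removal higher (against 2), since fewer genes were tested; no filter gave 1817 and 1825. The number of other phospholipases C lower was 3 with edgeR, 3 with DESeq2 and 3 to 6 with single libraries left out, for which the cause was not tested. Plcxd2 had log2 fold changes of -0.66 with edgeR (adjusted p = 0.128) and -0.68 with DESeq2 (adjusted p = 0.350). Prkci reversed to -0.042 (against 0.28) when the median of chromosome 3 was removed, by construction.

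The replicate block changed no effector call: Plcb1 stayed at 5.31 (adjusted p = 1.15e-06, limma) and Trio at 0.38 (adjusted p = 0.00108, limma), and genes past both thresholds numbered 1421 higher and 1478 lower. The values showed no pairing by replicate number, which does not tell how the cultures were handled. With 3 libraries per group, exact tests cannot go below p = 0.1, and depth limits Plcb1 in WT, Prkcz in GαqKO and Plcb2 in both.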
